A study of Mus musculus with 141 samples.

Results

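The 8 genes described here carry the insulin signal from the cell surface to glucose uptake: Insr, Irs1, Irs2, Pik3r1, Akt2, Tbc1d4, Slc2a4 and Trarg1. They were chosen by name for their roles, with earlier results of these data known, and each matched 1 of the 36558 gene entries of the deposited RNA-seq tables. The study profiled inguinal (subcutaneous) white adipose tissue (iWAT) of mouse strains of the Hybrid Mouse Diversity Panel (HMDP), inbred and recombinant inbred, to set females against males across genetic backgrounds. There were 67 female and 74 male libraries. They covered 82 strains with 1 library per sex and strain, and 59 strains had both sexes. By strain name, 32 female and 34 male libraries were BXD, 9 and 11 were AXB/BXA, 2 and 3 were BXH, 3 and 3 were CXB, and 21 and 23 were other inbred strains. The label of the BXD strain BXD24/TyJ-Cep290<rd16>/J names an allele of Cep290. AXB19/PgnJ, AXB19a/PgnJ and AXB19b/PgnJ were counted as separate strains. All groups shared the same treatment. Mice ate chow until 8 weeks of age and then 8 weeks of a diet high in fat and sucrose, and tissue was taken after a 4 h fast, so no library showed a chow-fed or insulin-stimulated state. BXD strains descend from C57BL/6J and DBA/2J, AXB/BXA strains from A/J and C57BL/6J, and BXH strains from C57BL/6J and C3H/HeJ, so libraries of 1 family were genetically related. The labels gave no second animal for any strain and sex. Spread between animals could therefore not be separated from spread between strains. In the tests for sex and strain, p-values were set against the spread of the female minus male difference over strains.

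Insulin binds its receptor on fat cells, and the activated receptor kinase phosphorylates the docking proteins IRS1 and IRS2. These recruit phosphoinositide 3-kinase (PI3K), whose lipid product brings the kinase AKT2 to the membrane, and AKT2 then inactivates TBC1D4, a brake on the small GTPases that move vesicles. Vesicles carrying the glucose transporter GLUT4 are released to the cell surface, and glucose enters the adipocyte. Fat and skeletal muscle are the tissues best known for this insulin-dependent uptake, and all values here are transcript amounts, not protein, phosphorylation or transport.

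Depth was ample for all 8 genes, with library totals of 6269154 to 78562648 estimated counts (median 30233245). Mitochondrially encoded genes took 3.99% to 29.9% of the counts. Each of the 8 adipocyte markers (Adipoq, Plin1, Plin4, Cidec, Fabp4, Lep, Cfd and Pnpla2) was above 0 in every library. At this depth trace amounts are enough for that, and the summed level of these markers, given below, varied widely. Y-linked genes went against the label in 3 libraries, those labelled female BXD34/TyJ, female BXD69/RwwJ and male NZW/LacJ. The first of these was also the shallowest and had the highest mitochondrial share. These 3 are called label-discordant here. Skeletal muscle markers summed to over 100 CPM (counts scaled to library size) in 21 libraries, which leaves 44 of the 59 strain pairs when their strains are set aside. Results that changed without the label-discordant or muscle-rich libraries are given with both values.

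Promoter sequences were held by RefSeq (GRCm38.p6) for 5 of the 8 genes, and the 250 bases before an annotated start are shown for 4 of them. Akt2 had several such starts, and only the most upstream is shown. For Irs1 and Irs2 the RefSeq start differs from the gene start in the coordinates given below (82291416 and 11008458). Irs1 and Irs2 are shown because these paralogs differed in their sex difference, Akt2 because it was lower in females, and Tbc1d4 because it alone of the 8 passed the test for strain. The windows lie at chr1:82291440-82291689 (Irs1, minus strand), chr8:11008930-11009179 (Irs2, minus strand), chr7:27591302-27591551 (Akt2, plus strand) and chr14:101609192-101609441 (Tbc1d4, minus strand). Sequences run 5′ to 3′ toward the start, and capitals mark matches to the motifs searched on both strands.
Irs1: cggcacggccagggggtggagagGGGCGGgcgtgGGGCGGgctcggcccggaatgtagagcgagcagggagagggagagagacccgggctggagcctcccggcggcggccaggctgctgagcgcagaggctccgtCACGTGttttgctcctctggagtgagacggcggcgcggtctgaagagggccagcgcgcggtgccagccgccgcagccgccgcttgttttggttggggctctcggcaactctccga
Irs2: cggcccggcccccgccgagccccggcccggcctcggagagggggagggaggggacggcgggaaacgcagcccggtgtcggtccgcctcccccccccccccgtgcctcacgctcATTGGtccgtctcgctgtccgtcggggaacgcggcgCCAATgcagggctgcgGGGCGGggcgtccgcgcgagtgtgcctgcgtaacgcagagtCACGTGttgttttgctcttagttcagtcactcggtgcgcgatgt
Akt2: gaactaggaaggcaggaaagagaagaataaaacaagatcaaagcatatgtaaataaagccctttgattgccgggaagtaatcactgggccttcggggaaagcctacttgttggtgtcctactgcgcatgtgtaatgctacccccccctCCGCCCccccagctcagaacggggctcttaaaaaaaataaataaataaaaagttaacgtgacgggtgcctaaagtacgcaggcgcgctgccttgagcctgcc
Tbc1d4: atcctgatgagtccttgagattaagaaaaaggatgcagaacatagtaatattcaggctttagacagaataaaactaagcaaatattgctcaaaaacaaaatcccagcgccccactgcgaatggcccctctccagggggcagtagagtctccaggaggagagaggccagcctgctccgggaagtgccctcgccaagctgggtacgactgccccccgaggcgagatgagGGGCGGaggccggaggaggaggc

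The Irs1 and Irs2 windows were GC-rich (72.4% and 72.8% G or C, against a median of 52.4% over all windows), whereas those of Akt2 (48.8%) and Tbc1d4 (54.8%) were near that median. Irs1 held the GC box GGGCGG at 2 places and the E-box CACGTG at 1 place. Irs2 held 1 GC box, 1 E-box and the CCAAT box in both orientations. The windows shown for Akt2 and Tbc1d4 held 1 GC box each, and no matches overlapped. The further Akt2 windows, which are not shown, held no match to any motif searched. Of 32851 windows of the same length, 32.7% held a GC box, 33.9% CCAAT and 6.02% CACGTG. None of the 4 windows held TATAAA (12.4% of all windows), the FOXO letters TGTTTAC (3.17%), the C/EBP letters TTGCGCAA (0.164%), the PPAR repeat of AGGTCA with 1 base between the copies (0.0335%), the oestrogen receptor palindrome of GGTCA and TGACC with 3 bases between (0.0639%) or the androgen and glucocorticoid receptor palindrome of GNACA and TGTNC with 3 bases between (0.387%). A match is a run of letters and not a measured binding site.

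Levels between genes were compared in TPM, a unit in which the authors divided by transcript length. Over all libraries the median TPM was highest for Trarg1 (193), followed by Akt2 (141.8), Pik3r1 (57.9), Slc2a4 (54.7), Tbc1d4 (24.0), Insr (22.7), Irs2 (13.4) and Irs1 (10.7). The vesicle protein gene Trarg1 and both docking protein genes thus stood at opposite ends of the order. Not all neighbours in this order were distinct. Pik3r1 exceeded Slc2a4 in 76 libraries and Tbc1d4 exceeded Insr in 74, both near an even split of the 67 female and 74 male libraries together. Irs2 exceeded Irs1 in 60 of 74 male but only 31 of 67 female libraries. Trarg1 exceeded Akt2 in 68 of 74 male and 45 of 67 female libraries.

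**Figure D1:**
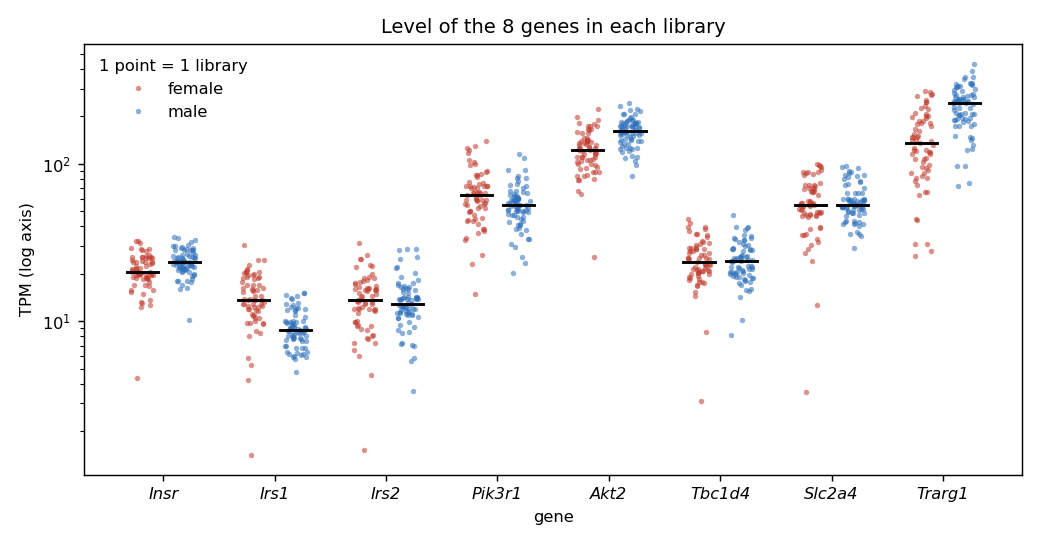
TPM of the 8 genes (log axis) in each of 67 female (red) and 74 male (blue) libraries, with black bars at the medians. Trarg1 and Akt2 were highest, and the female and male clouds were most offset for Irs1, Akt2 and Trarg1. The lowest female TPM of all 8 genes was in the library labelled BXD34/TyJ, which in CPM was lowest only for Irs2 and Pik3r1.

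Sex differences were tested in the 59 strains with both libraries, with strain as a block, with the quasi-likelihood test of edgeR and p-values adjusted by Benjamini-Hochberg over 16765 genes. Trarg1, Akt2 and Insr were lower in females and Irs1 was higher, whereas Irs2, Pik3r1, Tbc1d4 and Slc2a4 did not pass an adjusted p of 0.05. Of all genes tested, 29.8% were lower and 28.4% higher in females (58.1% in either direction). A count of 3 lower and 1 higher among 8 was close to these shares, and is no result about the 8 genes by itself. Between-library comparisons used CPM scaled by the trimmed mean of M values (TMM). In bulk tissue, fewer cells of a type and less RNA per cell cannot be told apart.

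Insr (ENSMUSG00000005534, chr8:3122061-3279617, minus strand, GRCm38) encodes the insulin receptor. The female libraries held 73.5 to 189.6 CPM with a median of 129, against 95.6 to 248 CPM with a median of 152 in the males, so the sexes overlapped widely. In the matched strains it averaged 127.97 ± 25.1 CPM in females and 147 ± 28.5 in males (SD, n = 59), and the female library was higher in 17 of 59 strains. The log2 fold change, female minus male, was -0.20 (SE 0.048, edgeR adjusted p = 0.000337). Scaled by library totals and not TMM, it was -0.093 (adjusted p = 0.016). The extremes were female AXB12/PgnJ and LP/J and male BTBR T<+> tf/J and BXD43/RwwJ.

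Irs1 (ENSMUSG00000055980, chr1:82233101-82291416, minus strand) encodes a docking protein of the receptor and was the only one of the 8 genes higher in females. Female CPM spanned 24.3 to 193 around a median of 96.0, and male CPM 30.9 to 121 around 59.4. Matched libraries averaged 102.6 ± 36.5 in females and 67.2 ± 22.9 in males (SD, n = 59). Females were higher in 51 of 59 strains (log2FC = 0.60, SE 0.090, edgeR adjusted p = 7.02e-08). The female I/LnJ library was highest, and the female AXB12/PgnJ library was the lowest of both sexes, below every male.

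Irs2 (ENSMUSG00000038894, chr8:10984681-11008458, minus strand), the other main docking protein, showed no such offset. The female libraries held 34.2 to 149.9 CPM with a median of 70.4, against 27 to 150.4 CPM with a median of 67.2 in the males. The matched means were 69.9 ± 22.6 and 72.1 ± 27.3 (SD, n = 59), with 32 of 59 strains higher in females (log2FC = -0.016, SE 0.088, edgeR adjusted p = 0.887). Its difference within single strains still spanned from -2.0 in AXB12/PgnJ to 1.45 in DBA/2J on the log2 CPM scale. The ratio of Irs1 to Irs2 within a library therefore shifted between the sexes. On log2 TPM it averaged 0.081 ± 0.55 in females and -0.54 ± 0.53 in males (SD, n = 59), a difference of 0.62, with females higher in 49 of 59 strains. The 2-sided sign-permutation p was 1e-05, the smallest that 100000 resamples give (adjusted p = 1.5e-05 over 3 ratios). Irs1 was the more abundant of the pair in 33 of 59 female and 11 of 59 male libraries.

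Pik3r1 (ENSMUSG00000041417, chr13:101680563-101768217, minus strand) encodes the main regulatory subunit of PI3K. Female CPM spanned 127.95 to 502 around a median of 242, and male CPM 145 to 359 around 230.3. Matched means were 255 ± 64 and 236 ± 53.8 (SD, n = 59), with females higher in 35 of 59 strains (log2FC = 0.12, SE 0.056, edgeR adjusted p = 0.0687). The call depended on the settings, and 6 of 14 alternatives placed it below 0.05, among them library totals in place of TMM (log2FC = 0.22, adjusted p = 0.000419) and the 44 strains without muscle-rich libraries (0.17, adjusted p = 0.0191).

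Akt2 (ENSMUSG00000004056, chr7:27591552-27640826, plus strand) encodes the AKT isoform best known for the metabolic actions of insulin. The female libraries held 117.6 to 425 CPM with a median of 251, against 195 to 488 CPM with a median of 326 in the males. Matched means were 246 ± 68 and 334 ± 59.3 (SD, n = 59), and females were higher in 8 of 59 strains (log2FC = -0.47, SE 0.063, edgeR adjusted p = 4.82e-09). Female AXB12/PgnJ was lowest and male 129X1/SvJ highest. Its paralog Akt1 was instead slightly higher in females (104.98 ± 12.4 against 99.5 ± 14.2 CPM, log2FC = 0.088, SE 0.023, adjusted p = 0.00094). The log2 TPM ratio of Akt2 to Akt1 averaged 0.93 ± 0.51 in females and 1.5 ± 0.40 in males (SD, n = 59), a difference of -0.57 (permutation p = 1e-05, adjusted p = 1.5e-05). In 11 of 59 strains the female had the higher ratio.

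Tbc1d4 (ENSMUSG00000033083, chr14:101442360-101609191, minus strand) encodes the Rab GTPase-activating protein also called AS160, a direct AKT substrate. Female CPM spanned 22.4 to 110.1 around a median of 70.4, and male CPM 24.2 to 119.8 around 72.3. The matched means were 71.5 ± 15.4 in females and 71.6 ± 17.7 in males (SD, n = 59), a difference far below either SD. Females were higher in 32 of 59 strains, and the log2FC was 0.014 (SE 0.043, edgeR adjusted p = 0.8). The lowest library of each sex came from the same strain, 129X1/SvJ, and the highest from BXD38/TyJ (female) and I/LnJ (male).

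Slc2a4 (ENSMUSG00000018566, chr11:69942539-69948188, minus strand) encodes GLUT4, the transporter that insulin brings to the cell surface. The female libraries held 21.8 to 263 CPM with a median of 107.8, against 55.0 to 363 CPM with a median of 116.6 in the males. Matched means were 121 ± 58.2 and 130.6 ± 49.3 (SD, n = 59), with 26 of 59 strains higher in females, and the difference did not pass the test (log2FC = -0.17, SE 0.10, edgeR adjusted p = 0.154). In females it had the widest relative spread of the 8 genes (coefficient of variation 47.5%, with Trarg1 next at 45.5%). Slc2a1, which encodes the more general transporter GLUT1, was higher in females (17.9 ± 5.74 against 14.9 ± 3.89 CPM, log2FC = 0.25, SE 0.063, adjusted p = 0.000552). The log2 TPM ratio of Slc2a4 to Slc2a1 averaged 2.55 ± 1.03 in females and 3.02 ± 0.73 in males (SD, n = 59), a difference of -0.46 (permutation p = 0.00342, adjusted p = 0.00342). Females were higher in 22 of 59 strains. Without the strains that had muscle-rich libraries the difference was -0.28 (n = 44 strains, permutation p = 0.0966).

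Trarg1 (ENSMUSG00000046275, chr11:76679808-76698664, plus strand) encodes a membrane protein of GLUT4 vesicles that is abundant in adipocytes, and it had the largest sex difference of the 8. Female CPM spanned 68.6 to 729.8 around a median of 364, and male CPM 188 to 1077 around 636. Matched means were 355 ± 163 and 646 ± 182 (SD, n = 59), and females were higher in only 4 of 59 strains (log2FC = -0.96, SE 0.11, edgeR adjusted p = 8.12e-11). One of these 4 was NZW/LacJ, whose male library is label-discordant and had the lowest Trarg1 of all males. Without that strain the log2FC was -0.99 (n = 58 strains, adjusted p = 1.09e-11).

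**Figure D2:**
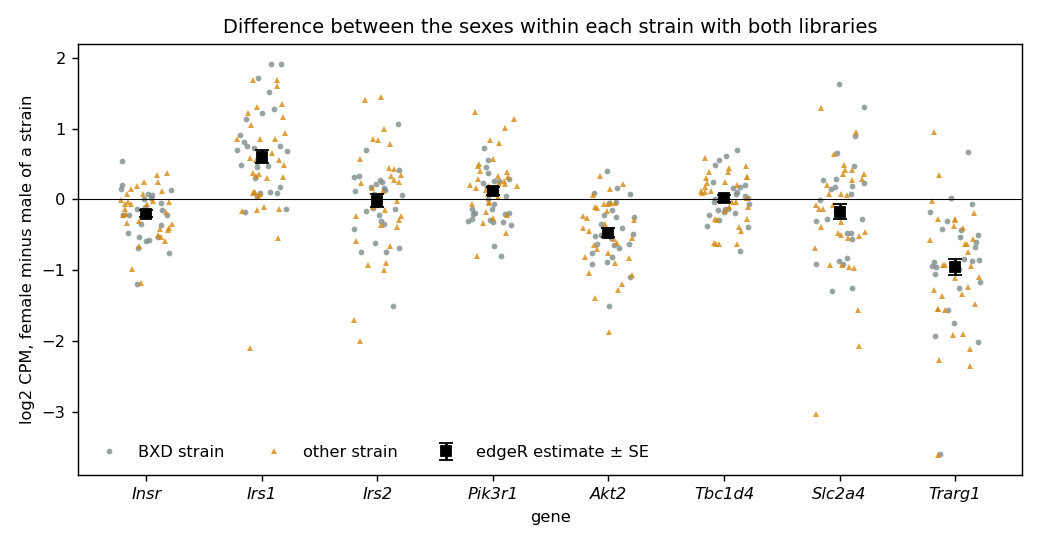
Female minus male log2 CPM of each of the 59 strains for the 8 genes, with BXD strains as grey circles, other strains as orange triangles and the edgeR estimate with its SE in black. Irs1 lay mostly above 0, Akt2 and Trarg1 mostly below 0, and the other genes straddled it. AXB12/PgnJ gave the lowest point for Irs1, Irs2, Akt2, Slc2a4 and Trarg1.

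The AXB12/PgnJ female library stood apart, with the lowest CPM of either sex for Insr, Irs1, Akt2, Slc2a4 and Trarg1. It also had the lowest mean log2 CPM of the adipocyte list (8.55) and 364 CPM of muscle markers. The next lowest adipocyte means were in female BXD38/TyJ (8.69), SJL/J (8.76) and SWR/J (8.93), and Trarg1 was low in all of these (69.2, 106.4 and 75.3 CPM). Tbc1d4 did not follow in the same way, at 110.1 CPM in female BXD38/TyJ, 99.2 in SJL/J and 79.1 in SWR/J, but 49.4 in AXB12/PgnJ, among the lowest females.

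Cell type markers differed between the sexes as well. The summed adipocyte list was lower in females (median 22008 CPM, range 4356 to 39806) than in males (29509, 9033 to 47165). This sum was higher in females in 8 of 59 strains. Endothelial markers were also lower in females (795 against 1138 CPM, higher in 8 of 59 strains), as were macrophage markers (737 against 888, higher in 15 of 59). Mammary epithelial markers had a median of 479 CPM in females (0.907 to 2176) and 2.52 in males (0.285 to 476) and were higher in females in 59 of 59 strains. All 9 mammary markers were above 0 in 65 of 67 female and 17 of 74 male libraries. Lymphocyte (47.2 against 15.6 CPM), progenitor (436 against 442) and brown adipocyte markers (41.3 against 48.2) were higher in females in 35, 30 and 23 of 59 strains. The part of these other lists in the results was not tested. The adipocyte list was, as a covariate added to the fit. With it, the log2FC of Trarg1 was -0.35 (adjusted p = 1.38e-07), that of Akt2 -0.14 (adjusted p = 0.00229) and that of Irs1 0.93, all 3 still called. Insr was 0.035 and no longer called (adjusted p = 0.44). Slc2a4 turned to 0.24 (adjusted p = 0.0403) and Irs2 to 0.30 (adjusted p = 0.00452), both then called higher in females.

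Founder strains of the BXD, AXB/BXA and BXH families showed the Irs1 and Trarg1 directions, as a description with 1 library per sex. Irs1 was 152 CPM in the female and 65.1 in the male of C57BL/6J, 125.8 and 49.5 in DBA/2J, 177 and 97.4 in A/J, and 80.3 and 50.7 in C3H/HeJ. Trarg1 was 284 and 692 CPM in C57BL/6J, 474 and 575 in DBA/2J, 563 and 641 in A/J, and 289 and 557 in C3H/HeJ. Irs1 was higher and Trarg1 lower in the female of all 4 strains. Slc2a4 was higher in the female of these 4 strains, at 164 and 116.2 CPM in C57BL/6J, 118.8 and 97.1 in DBA/2J, 229 and 118.4 in A/J, and 72.5 and 63.1 in C3H/HeJ. BALB/cJ, from the BALB/c side of the CXB family, had 88.5 and 60.1 CPM of Irs1 and 184 and 538 of Trarg1, but its Slc2a4 was lower in the female (61.2 and 119.04 CPM). Over the panel Slc2a4 had no such common direction, with 26 of 59 strains higher in females.

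Whether the sex difference itself depended on family was tested as an interaction of sex with BXD membership. No gene passed in edgeR (0 of 16765, 0% called, with 314 at an unadjusted p under 0.05) or in limma-voom (0, with 422). Among the 8 genes the smallest p was that of Pik3r1 (difference of log2FC -0.27, SE 0.11, p = 0.0165, edgeR adjusted p = 1.0). In the 26 BXD strains its log2FC was -0.032 (SE 0.081, adjusted p = 0.79), and in the 33 other strains 0.24 (SE 0.072, adjusted p = 0.00539). Trarg1 was -0.88 in BXD and -1.02 in other strains, Akt2 -0.44 and -0.49, and Irs1 0.72 and 0.51, so the called directions held in both.

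Strain was tested by asking whether libraries of the same strain, female and male, resembled each other more than libraries of different strains did. Tbc1d4 was the only one of the 8 genes to pass the test for strain (F = 3.51, edgeR adjusted p = 1.32e-05), against 71.2% of all genes. The other adjusted p-values were 0.0644 for Insr, 0.101 for Pik3r1, 0.118 for Slc2a4, 0.166 for Irs1, 0.239 for Trarg1, 0.278 for Irs2 and 0.282 for Akt2. With library totals Insr and Pik3r1 also passed (adjusted p = 0.036 and 0.0166). The count rose from 1 to 6 of 8, with Pik3r1 and Slc2a4 left out, when the adipocyte list entered as a covariate (83.5% of all genes). Insr also passed without the pair that had a label-discordant library (adjusted p = 0.0479), and Irs1 in the 44 strains without muscle-rich libraries (adjusted p = 0.034).

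The correlation of the female with the male library over 59 strains gave the same picture. Tbc1d4 had Pearson r = 0.60 (permutation p = 2e-05, adjusted p = 0.000171 over 16862 genes) and Spearman rho = 0.42 (p = 0.001). The value fell to 0.36 without the 2 strains farthest from the median, and was 0.47 within BXD and 0.65 within other strains. Strain 129X1/SvJ, with 22.4 and 24.2 CPM in its female and male libraries, weighed on it. In an alternative chosen after seeing the data, without that strain, r was 0.41 (adjusted p = 0.00542) and the strain effect had F = 2.32 (adjusted p = 0.00261), both still called. The next lowest Tbc1d4 libraries were female BXD34/TyJ (27.1) and male BXD60/RwwJ (43.4). The other 7 genes had r from 0.0006 for Irs2 to 0.22 for Insr, with adjusted p from 0.142 to 0.997, whereas 51.9% of all genes were called. On log2(TPM + 1) Pik3r1 was also called.

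**Figure D3:**
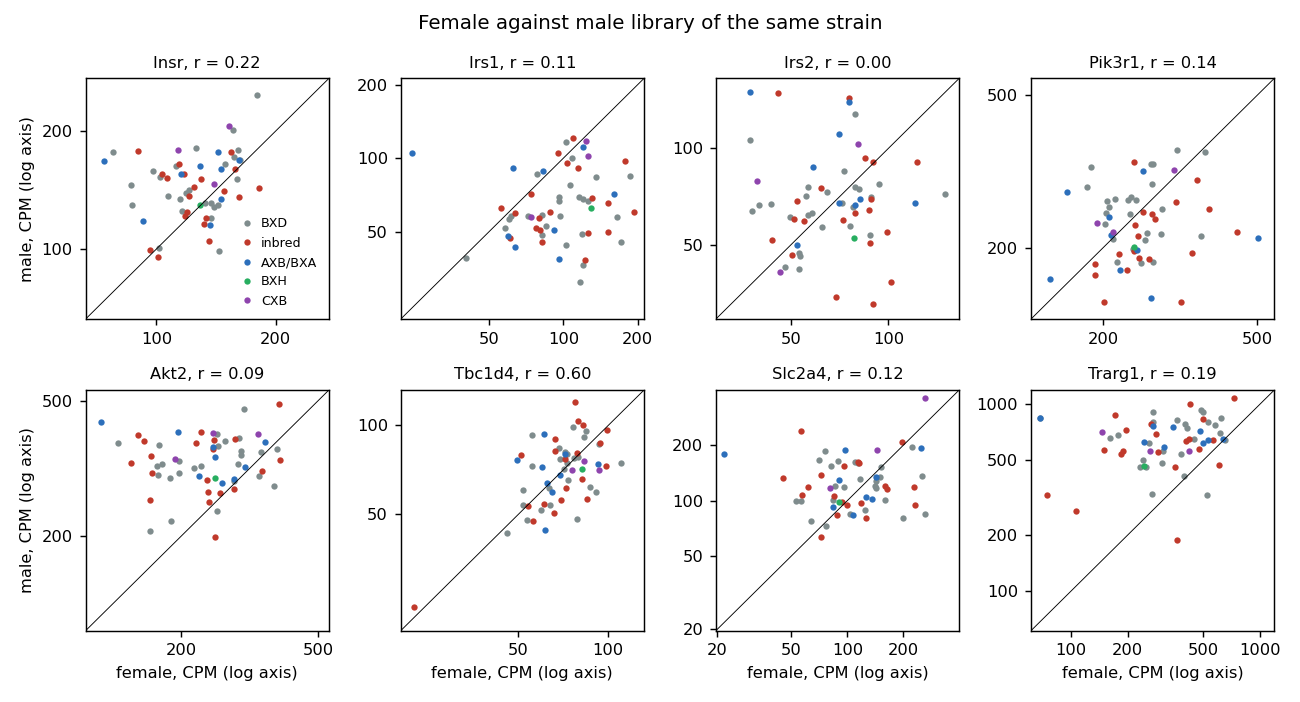
Female against male CPM (log axes) of the 59 strains for each gene, coloured by strain family, with the line of equality and Pearson r of log2 CPM. Tbc1d4 (r = 0.60) followed the line, with 129X1/SvJ alone at the lower left, and Irs2 (r = 0.00) formed a cloud. Trarg1 and Akt2 lay above the line and Irs1 below it.

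Families were compared within each sex, with strains as replicates. In females none of the 8 genes differed among the 5 families (0 of 8 in edgeR, none at an unadjusted p under 0.05, and 0 of 8 in limma-voom), against 8.73% of 20270 genes. In males Slc2a4 was called (F = 4.47, edgeR adjusted p = 0.03), against 13.1% of 19283 genes. Its male medians were 187.7 CPM in CXB, 119.3 in BXD, 115.8 in other inbred, 104.2 in AXB/BXA and 98.4 in BXH strains. This call rested on 1 library, the male of CXB11/HiAJ, with 363 CPM of Slc2a4 and 169 CPM of muscle markers. Without it the adjusted p was 0.473, and without all muscle-rich libraries 0.47. That male library was also the deepest (78562648 estimated counts) and had 25.1% mitochondrial counts. In TPM its Slc2a4 was 76.6, below male 129X1/SvJ (96.0). Which of these features mattered was not tested. The female library of CXB11/HiAJ was also high in Slc2a4, with 262.5 CPM and 148 CPM of muscle markers.

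Pik3r1 was higher in BXD than in other inbred males. CPM ranged from 183 to 359 in the 34 BXD males (median 251) and from 145 to 335 in the 23 inbred males (median 197), and the ranges overlapped. The log2FC was 0.26 (SE 0.079, edgeR adjusted p = 0.0262). Of 19283 genes, 2.81% were higher and 5.82% lower in BXD males (8.63% either way), and none of the other 7 genes was called. It stayed called in all 7 alternatives, with log2FC from 0.24 to 0.27 and adjusted p up to 0.0497, close to the threshold. In simulated counts this comparison made more false calls than its threshold allows, so the call is a weak one. In females the sign was opposite and the gene was not called (log2FC = -0.16, SE 0.093, adjusted p = 0.276). Among females 4.96% of 20270 genes were lower and 7.46% higher in BXD (12.4% either way), and none of the 8 genes was called by edgeR (1 at an unadjusted p under 0.05) or by limma-voom (1). That gene was Irs2, with medians of 58.6 CPM in BXD and 78.8 in other inbred females (log2FC = -0.27, SE 0.13, edgeR adjusted p = 0.15).

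How the 8 genes varied together was described by the 28 pairwise correlations of log2 CPM within each sex. The points share tissue composition and scaling, and the strains are related, so the permutation p-values treat related libraries as exchangeable and are given unadjusted. An unadjusted p under 0.05 was reached by 18 of 28 pairs in females and 18 of 28 in males, and r was positive for 22 in each. The share among all gene pairs was not computed, so these counts are no result particular to the 8 genes. The closest pair was Akt2 with Trarg1, with r = 0.85 in females (rho = 0.84, n = 67) and r = 0.75 in males (rho = 0.72, n = 74). Both permutation p were 1e-05, the smallest possible. Without the 2 libraries farthest from the median r was 0.82 and 0.71, within BXD 0.84 and 0.73, and within other strains 0.88 and 0.77.

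Irs1 and Slc2a4, the first docking protein and the transporter, had r = 0.59 in females (rho = 0.53) and 0.65 in males (rho = 0.67), both at a permutation p of 1e-05. Without 2 libraries these were 0.53 and 0.64, within BXD 0.53 and 0.67, and within other strains 0.64 and 0.66. Insr with Akt2 gave 0.77 (rho = 0.77) and 0.55 (rho = 0.52), both at a permutation p of 1e-05. Tbc1d4 ran against Trarg1, with r = -0.44 in females (rho = -0.56, permutation p = 0.00024) and -0.46 in males (rho = -0.44, p = 7e-05). On log2(TPM + 1) in females its r was weaker (-0.13, permutation p = 0.278), whereas its rho was -0.42 (permutation p = 0.0006). Within BXD it was -0.38 and -0.55, and within other strains -0.48 and -0.42.

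When each gene's log2 CPM was first regressed on the adipocyte list, the correlation of Akt2 with Trarg1 fell to 0.36 in females and 0.45 in males. That of Slc2a4 with Trarg1 fell from 0.59 to 0.080 and from 0.36 to -0.059. That of Irs1 with Slc2a4 was 0.48 and 0.55, closer to its starting value. That of Tbc1d4 with Trarg1 went from -0.44 to -0.028 in females and from -0.46 to -0.29 in males. Other pairs moved away from 0. Tbc1d4 with Slc2a4 went from 0.083 to 0.54 in females and from -0.044 to 0.21 in males. Tbc1d4 with Insr went from -0.017 to 0.47 in females and from 0.0053 to 0.35 in males. Irs1 with Trarg1 turned from 0.28 to -0.23 in females and from 0.064 to -0.41 in males. These values are descriptions without a test.

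**Figure D4:**
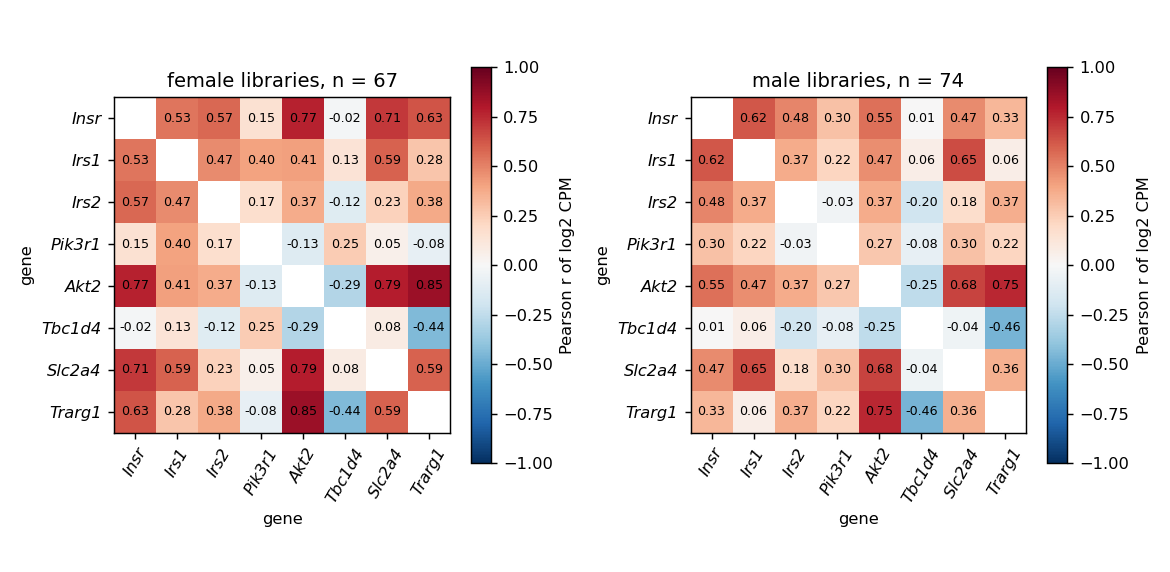
Pearson r of log2 CPM for the 28 pairs of the 8 genes over 67 female (left) and 74 male (right) libraries, from blue (-1) to red (1). Akt2 with Trarg1 was highest in both sexes, and the row of Tbc1d4 was near or below 0 except with Pik3r1 and Irs1 in females.

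Correlation with the adipocyte list itself placed the genes in an order that was similar in both sexes. Pearson r was 0.92 in females and 0.73 in males for Trarg1, 0.84 and 0.75 for Akt2, 0.68 and 0.64 for Insr, and 0.62 and 0.54 for Slc2a4. It was lower for Irs2 (0.45 and 0.54) and Irs1 (0.40 and 0.44), near 0 in females for Pik3r1 (-0.015 and 0.24), and negative for Tbc1d4 (-0.47 and -0.38). Spearman rho ran from -0.57 for Tbc1d4 to 0.87 for Trarg1 in females and from -0.34 to 0.70 for Akt2 in males. In each sex 7 of 8 genes were called by permutation after adjustment over 16862 genes, 6 of them positive. Of all genes, 65% were called and 31.8% positive in females, and 65.7% and 32.6% in males. Without 2 libraries the called r ranged from -0.53 to 0.89 in females and from -0.38 to 0.72 in males. Within BXD and within other strains r was 0.87 and 0.94 for Trarg1 in females and -0.47 and -0.48 for Tbc1d4. For Irs1 in females it was 0.070 in BXD and 0.61 in other strains, and without muscle-rich libraries it was 0.28 and no longer called (adjusted p = 0.0516). On log2(TPM + 1) the negative relation of Tbc1d4 was not called in females (r = -0.088, adjusted p = 0.555), whereas in males it was (r = -0.37, adjusted p = 0.00389). Pik3r1 in males was called without the label-discordant library (r = 0.26, adjusted p = 0.041) and on log2(TPM + 1) (r = 0.27, adjusted p = 0.0438).

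The genes most like each member were taken as those with the highest mean of the female and male r of log2 CPM among 16862 genes. For Akt2 these were Lipe (0.89), Cebpa (0.89) and Plin1 (0.88), and for Trarg1 Slc22a3 (0.91), Plin4 (0.87) and Hoxc5 (0.86). Plin1 and Plin4 coat lipid droplets, Lipe encodes hormone-sensitive lipase and Cebpa an adipocyte transcription factor, and the 2 perilipins are also in the adipocyte list. Slc2a4 was closest to Slc25a44 (0.87), Gys1, which encodes glycogen synthase (0.87), and Miga2 (0.86). Insr was closest to Pde3b, a phosphodiesterase activated by insulin (0.82), Bag4 (0.81) and Aldh6a1 (0.79), and Irs1 to Nrbp2 (0.74), Echdc3 (0.71) and Bag4 (0.71). Irs2 was closest to Gulp1 (0.71), Ndrg1 (0.69) and Phf13 (0.67). Tbc1d4 had a different set, led by Ccnl1 (0.71) and Prpf4b (0.69). Pik3r1 had no close match, with Zfp583, Papss1 and Igfbp5 all at 0.50. Lipe, Cebpa and Plin1 lie on chromosome 7, as does Akt2, and Bag4 lies on chromosome 8 with Insr. The remaining neighbours lie on other chromosomes than their member. Whether linkage in these strains played a part was not tested.

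Of the other pathway genes, listed by role, 100 were tested for sex and 1, Irs4, was too low to test. Of the 100, 52 were lower in females, 16 higher and 32 not called. Their median log2FC was -0.082, beside 0.012 over all genes, and 29.8% of all genes were lower and 28.4% higher. With library totals in place of TMM, which moved the median of all genes to 0.12, the counts were 31 lower and 30 higher, and on log2(TPM + 1) 29 and 21. With the adipocyte covariate they were 34 and 21. A strain effect was called for 77 of the 100, beside 71.2% of all genes.

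Counts by role were taken with TMM only, and 29.8% of all genes were lower and 28.4% higher in females. Genes of transporter trafficking, the largest role, had the most lower calls, 19 of 28, with 2 higher. They were led by the caveolar coat genes Cav1 (1850 ± 983 CPM in females and 3026 ± 929 in males, log2FC = -0.85) and Cavin1 (-0.65), the vesicle cargo receptor Lrp1 (-0.62) and the motor Myo1c (-0.52). Among receptors, Igf1r was higher (log2FC = 0.41) and Igf2r lower (-0.23), and Insrr was not called. Of 11 adaptors tested, 6 were lower and 2 higher. The PI3K and AKT kinases gave 7 lower and 2 higher of 13, with Pik3cb at -0.32 and Rictor at 0.16. The AKT effectors gave 8 lower and 1 higher of 14, with Pde3b at -0.56 and the transcription factor Foxo3 at 0.38. All named calls had an edgeR adjusted p of at most 0.00773. With the adipocyte covariate Cavin1 was no longer called, and values for Igf2r, Pik3cb and Rictor were not examined.

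Inhibitors of the pathway gave 6 lower and 4 higher of 20, beside 29.8% lower and 28.4% higher over all genes. They held the largest changes in both directions outside the transporters. Grb14, an adaptor that blocks the receptor kinase, averaged 30.4 ± 21.6 CPM in females and 82.6 ± 36.7 in males (SD, n = 59) and was higher in females in 2 of 59 strains. Its log2FC was -1.57 (SE 0.13, edgeR adjusted p = 2.98e-16). Tns2 was lower as well (-0.56). Enpp1, a membrane enzyme reported to bind the receptor, averaged 16.6 ± 8.68 CPM in females and 7.06 ± 4.63 in males (log2FC = 1.30, SE 0.15, adjusted p = 1.35e-10). Socs3, a cytokine-induced inhibitor, was higher in females (0.62) but not with the adipocyte covariate (0.15, adjusted p = 0.29).

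Glucose transporters and the first enzymes of glucose use gave 5 lower and 4 higher of 11, beside 29.8% and 28.4% of all genes. Hk2, the hexokinase of insulin-responsive tissues, was lower in females (log2FC = -0.45) and Hk1 higher (0.24). Gys1 was lower (-0.26). The fructose transporter gene Slc2a5 was higher (11.7 ± 17.2 CPM in females and 1.97 ± 3.93 in males, log2FC = 2.83, SE 0.42, edgeR adjusted p = 5.63e-08). Its SDs exceeded its means, and females were higher in 52 of 59 strains. Hk1, Hk2, Gys1, Igf2r, Pik3cb and Rictor were named after their values were seen.

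**Figure D5:**
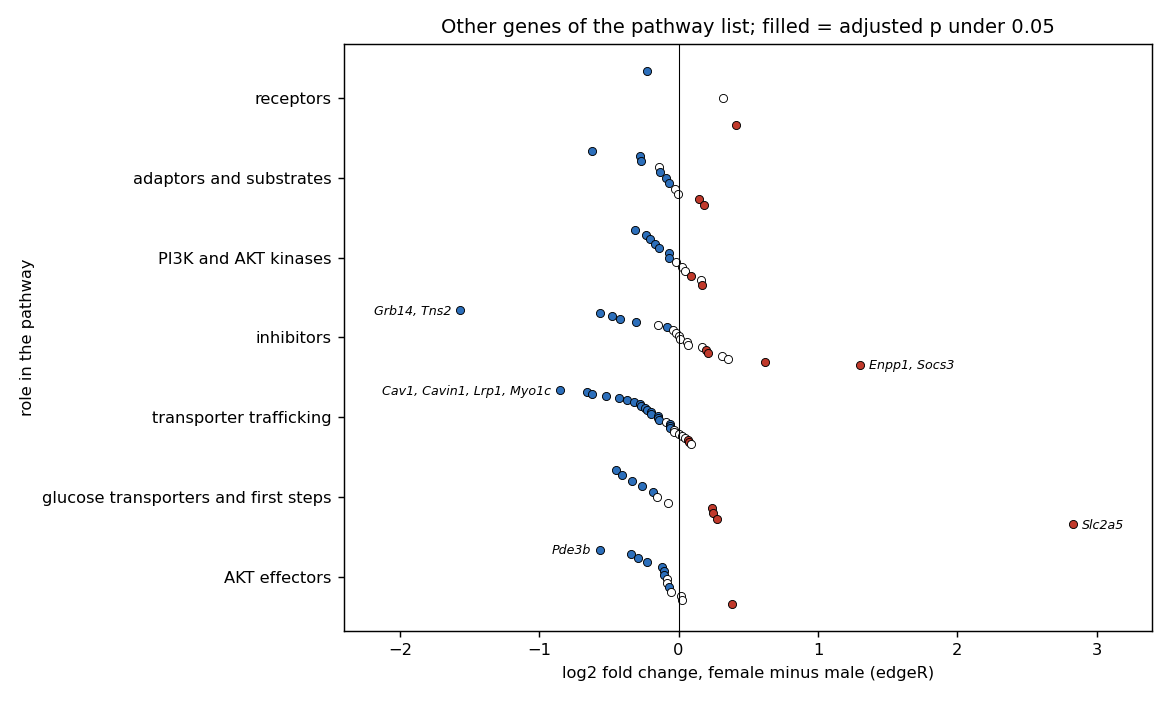
log2 fold change (female minus male, edgeR) of the 100 other pathway genes tested, grouped by role, where points are filled below an adjusted p of 0.05 (blue, lower in females, and red, higher) and open otherwise. Genes named, from the outermost inward, are called ones with a log2FC of at least 0.5 in size. Trafficking genes lay mostly left of 0, and Slc2a5, Enpp1 and Grb14 lay farthest out.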

How the data were processed

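RNA was measured in iWAT of HMDP mice. According to the study's methods and the processing notes, the authors aligned stranded paired-end reads with kallisto (version 0.46.1) to Ensembl transcripts of mm10 and summed them per gene with tximport. They deposited 2 tables, the estimated counts per gene (30.3% of values not whole) and the TPM, scaled to 1 fixed total per library. Gene symbols for 35935 of the 36558 identifiers came from the GENCODE annotation of the same build. Estimated counts split between near-identical transcripts remain estimates.

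Estimated counts were rounded and analysed in R (version 4.3.3) with edgeR (version 4.0.16, quasi-likelihood test, filterByExpr, TMM), with Benjamini-Hochberg adjustment over all genes tested and calls at an adjusted p under 0.05. The sex model was strain plus sex, as in the study, which used limma. Family was tested within a sex. log2 CPM used a prior count of 2. Alternatives used limma (version 3.58.1), DESeq2 (version 1.42.0), other scalings, filters and pseudocounts of 1 and 0.1 on TPM, and sets without label-discordant or muscle-rich libraries (each over 100 CPM). Correlations and ratios used 100000 permutations in Python (version 3.11.15) with scipy (version 1.17.1). The smallest possible p was 1e-05. Adjustment for correlations ran over all 16862 genes, not over the 8, a change from the plan. Fits were tested on simulated data, in which the sex test kept false calls under its threshold and the BXD against inbred test in males did not.

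Groups came from the labels. The strain name pairs a female with a male library. Deviations from the sex means correlated at a median of 0.56 within strains (-0.31 to 0.79, over 0.1 in 45 of 59) and -0.01 between strains. At the median depth, 3 counts equal 0.0992 CPM, far below any value given, and counting error is the only error this covers. The 8 genes, the pathway list and the marker lists were chosen with earlier results of these data known. Pathway genes were named when called for sex with a log2FC of at least 0.3 in size, at most 8 in each direction, together with the genes of the ratios. Some genes that these rules select are not reported here.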

Additional observations from a re-analysis of the deposited data

Results flagged for a closer look

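Pik3r1 in the 9 AXB/BXA females held 1 library far from the others. AXB13/PgnJ had 502 CPM, whereas the next highest, AXB19b/PgnJ, had 265 and the lowest, AXB5/PgnJ, 146. The gap to the nearest library was 0.664 of the range, above Dixon's critical value of 0.493 for 9 samples. The male library of AXB13/PgnJ had 212 CPM, near the middle of its family, and the strain gave the largest female excess of Pik3r1 (1.24 on the log2 CPM scale). The same female library had 10.6 for the mean log2 CPM of the adipocyte list and 4.63 CPM of muscle markers, both within the range of the other females. AXB/BXA females were the only group of 4 to 10 libraries, so 8 values, 1 for each gene, were examined. Chance marks about 1 in 20 such groups for a single gene, and more often when 8 genes are examined. The cause was not tested.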

How the results depend on the processing

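Irs1, Akt2 and Trarg1 were called for sex in all 14 alternatives, and Insr in 13. The number of the 8 genes called higher in females moved from 1 to 3 with library totals, to 2 on log2(TPM + 1), on log2(TPM + 0.1), without muscle-rich strains and under a filter of 10 counts in each library, and to 4 with the adipocyte covariate. Signs of small differences turned. Irs2 was 0.088 with library totals, 0.050 on log2(TPM + 1), 0.053 on log2(TPM + 0.1) and 0.30 with the adipocyte covariate. Tbc1d4 was -0.0087 without mitochondrial genes in the scaling, -0.0039 with no filter, -0.041 with all libraries and -0.038 with the adipocyte covariate. With that covariate Insr was 0.035 and Slc2a4 0.24. Scaling moved the balance over all genes: 51.2% of called genes were lower in females with TMM, 27.5% with library totals (2794 lower, 7364 higher) and 35% on log2(TPM + 1).

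Without the replicate block for strain, which pairs the female and male library, 8190 genes were called for sex in place of 9747, and with all libraries and no block 8739. The block changed no call among the 8 genes.

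Leaving out 1 strain at a time (limma-voom, where all 59 strains gave 9713) gave 9448 to 10218 genes, 3 to 4 of the 8 genes lower and 1 to 2 higher, and Irs2 from -0.047 to 0.014. Pik3r1 was called without AXB12/PgnJ, BXD12/TyJ, BXD14/TyJ, BXD24/TyJ-Cep290<rd16>/J, BXD43/RwwJ, BXD62/RwwJ or NZB/BlNJ (adjusted p from 0.0311 to 0.0488), and Slc2a4 without BXD40/TyJ, BXD50/RwwJ or C57BLKS/J (0.0371 to 0.0446).

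For strain, 3 of the 8 genes were called with library totals, 2 without the label-discordant pair, 2 without muscle-rich strains and 6 with the adipocyte covariate. For family in males, 0 were called with library totals, limma-voom, the adipocyte covariate, no muscle-rich libraries or no male CXB11/HiAJ. In BXD against inbred females, 1 (Irs2, adjusted p = 0.0227) was lower with the adipocyte covariate. Gene counts in limma-voom were 480 in place of 1770 for family in females, 1389 in place of 2522 for family in males, 850 in place of 2518 for BXD against inbred females and 1024 in place of 1665 for males. They were 1363 in those females without label-discordant libraries. On log2(TPM + 1), 2 of the 8 genes were called in the female to male correlation. In females Pik3r1 then had r = 0.23 with the adipocyte list, and Akt2 with Tbc1d4 had r = 0.13 (rho = -0.28). The Slc2a4 to Slc2a1 ratio differed by -0.28 without muscle-rich strains. The cause was not tested for any of these.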
